A study of Gallus gallus with 24 samples.

Results

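The cytosolic ribosomal protein genes encode the proteins of the ribosome outside mitochondria. Members were taken by gene symbol, RPL and RPLP for the large subunit and RPS for the small subunit, without the like-genes and pseudogenes that carry a similar symbol. The symbol rule used no measured value, though earlier results of these data were known when it was set. There were 60 members, 38 of the large and 22 of the small subunit, of 13009 named genes on the array. They were represented by 130 probe sets of 38439 tested, and for the 32 members with several probe sets the values given are those of the probe set whose mean signal over all arrays was highest.

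A ribosome reads messenger RNA on its small subunit and joins amino acids on its large subunit, and nearly all of its proteins are present in every particle. The messages of these genes begin with a terminal oligopyrimidine (TOP) tract, through which mTOR signaling controls their translation together, so that protein output can change while the amount of message does not. Liver is a heavy user of ribosomes, since hepatocytes make and secrete most plasma proteins, and TOP messages are among the most plentiful in the cell.

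Hepatic transcripts were measured on 24 Affymetrix Chicken Genome Arrays, 1 per liver, in male Ross x Ross broiler chickens. Livers came from 4 embryos each at embryonic day 16 (E16), E18 and E20, all in ovo, and from 4 hatchlings each at day 1 (D1), D3 and D9 after hatching. The labels give D1 chicks water, and D3 and D9 chicks feed and water. D1 chicks were held in the incubator, for a time on which the labels and the study differ. In the study, later chicks were vaccinated against Marek's disease and moved to a heated brooder. Age, feed, vaccination and housing therefore cannot be told apart where D1 is compared with D3 or D9. Each liver was a separate bird, and whole liver was used, so that fewer cells of a type and less RNA per cell cannot be told apart. The values are log2 intensities, in which 1 unit is a doubling of signal. Ratios are later minus earlier on that scale, and H vs. E is the mean of the 3 hatchling ages minus the mean of the 3 embryonic ages. A member is said to have changed at an adjusted p of 0.05 or less (limma, Benjamini and Hochberg over all 38439 probe sets), and it is called where its log2 ratio also reaches 0.75 in either direction.

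Hepatocyte markers (ALB, TTR, APOA1, FGB and TF) averaged 14.64 to 14.78 on all arrays, as liver should. 1 array went against its label. E18 replicate 2, labelled male, had a signal of 12.17 for HINTW, a gene of the female W chromosome, against 5.26 to 6.05 on the other 23 arrays. The 4 members on chromosome Z, of which male birds carry a pair and females a lone copy, had their lowest level of all 24 arrays on this array, and 0 of the 56 members elsewhere did. RPL17 deviated there by -0.36 from its own mean, RPS23 by -0.35, RPS6 by -0.31 and RPL37 by -0.31, while the 56 other members had a median deviation of -0.001. The 180 other Z genes with a mean signal of 8 or more had a median deviation of -0.60 on the same array, and the 4041 genes elsewhere -0.06. Results that use E18 are therefore given with and without this array where it decides them. E18 replicate 1 stood apart too. Its median deviation over the same 4041 genes was -0.20, against -0.07 to 0.11 on the other 23 arrays, and limma gave it the lowest array weight (0.47). It was kept, and counts with each array left out in turn are given at the end. D9 replicate 1 stood apart in a heart gene, NPPA, with a signal of 8.11 against 4.29 to 5.23 elsewhere.

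The members were bright and had small SDs. Mean signals ran over 4.53 (RPS13) to 14.27 (RPS3A) with a median of 13.39, and 57 of 60 averaged 12 or more. The exceptions were RPS13, near the background of the array on all of its 5 probe sets, RPL31 (8.09) and RPLP2 (10.97). Signals of different probe sets are not on a common scale, so these values place no member above another. Each member can be compared with itself, and over 24 arrays the members had a median SD of 0.13, against 0.23 for all probe sets with a mean of 12 or more. At like brightness the order was the same. Between signals of 12 and 13, 11 members had a median SD of 0.16 against 0.32 for 244 other probe sets, and between 13 and 14, 44 members had 0.12 against 0.20 for 97 others. The response of the probe sets at the top of the signal range was not tested. Of the 20 named genes with the smallest SD among 335 with a mean of 12 or more, 16 were members.

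**Figure D1:**
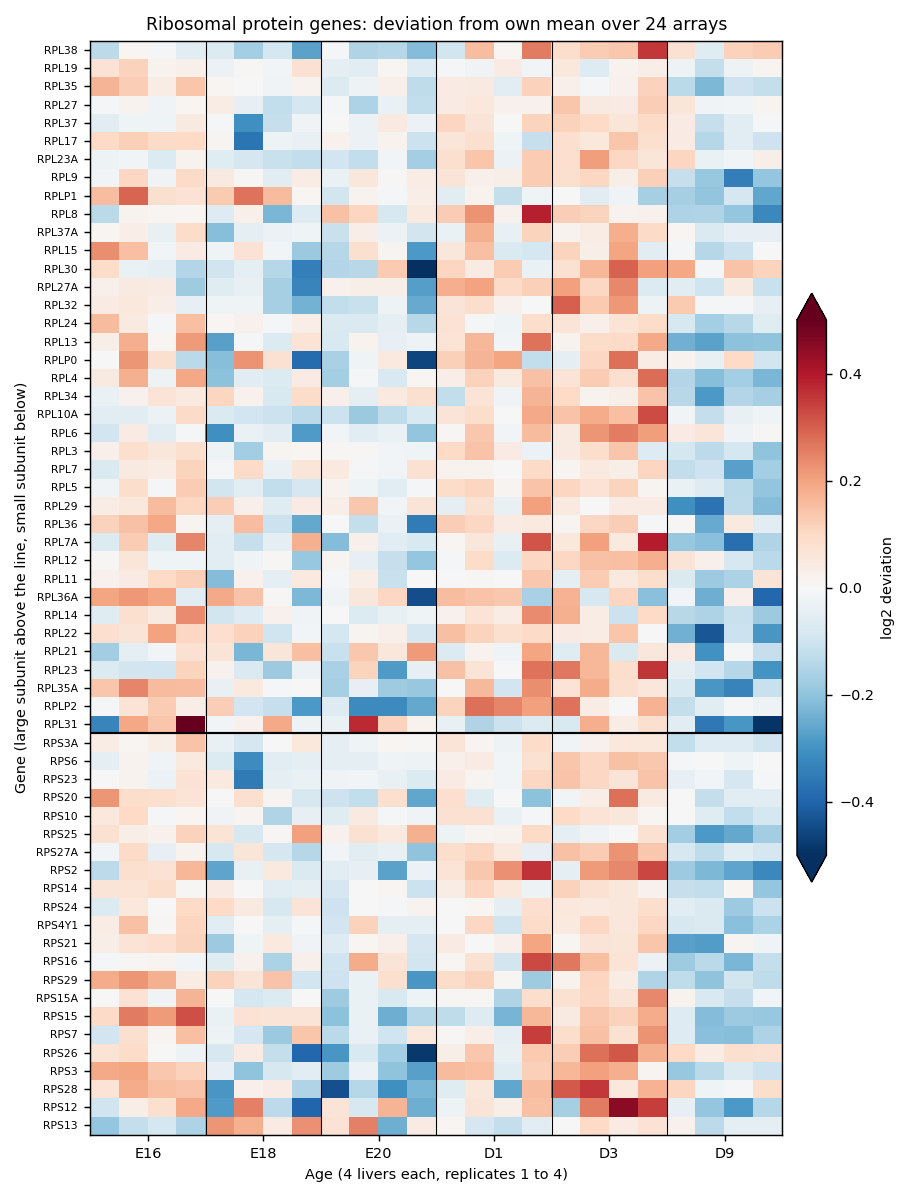
Deviation of each of 60 members (rows, large subunit above the black line, small subunit below, each ordered by mean signal) from its own mean on 24 arrays (columns, by age). Color is log2 deviation from -0.5 (blue) to 0.5 (red), the D3 columns are mostly pale red, the D9 columns mostly pale blue, and the 4 members on chromosome Z (RPL17, RPL37, RPS6, RPS23) are blue on E18 replicate 2.

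RPL19, of the large subunit, and RPS3A and RPS10, of the small subunit, varied least of all members. RPS3A, which sits near the exit of the messenger RNA from the small subunit, measured 14.28 to 14.41 at E16, 14.18 to 14.32 at E18, 14.22 to 14.28 at E20, 14.24 to 14.36 at D1, 14.25 to 14.32 at D3 and 14.14 to 14.21 at D9. The ranges of neighbouring ages overlapped except those of D9 and D3. RPL14 is a large-subunit protein that the study used together with COX7A2L as reference genes for qRT-PCR, both chosen by geNorm for stable expression. It had an SD of 0.11, the 26th smallest of 60 members. Its primers are printed because levels of other transcripts were set against what they amplify and against COX7A2L. They come from the study's primer list, where they are given for RPL14, a gene that RefSeq (GRCg7b) places on chromosome 2. The primers were not aligned to that gene here.
RPL14 forward: ccttcgggaggcatgct
RPL14 reverse: ccactagcgccctgttctg
RPL14 measured 12.77, 12.91, 12.88 and 13.07 at E16, 12.74, 12.77, 12.85 and 12.82 at E18, and 12.84, 12.77, 12.80 and 12.81 at E20. After hatching it measured 12.86, 12.90, 12.87 and 13.07 at D1, 13.01, 12.87, 12.73 and 12.93 at D3, and 12.69, 12.68, 12.72 and 12.65 at D9. All D9 livers lay below the 20 others, if only just, and RPL14 had a ratio of -0.24 ± 0.07 in D9 vs. D1 (log2, SE, adjusted p = 0.0304). That change was lost under the 3 other scalings described with the family's shifts, with ratios of -0.10 (adjusted p = 0.392) after cyclic loess, -0.19 (adjusted p = 0.113) after centring on bright probe sets and -0.07 (adjusted p = 0.474) after centring on the members.

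No member was called in any of the 9 comparisons. The largest absolute ratio was 0.45, for RPLP2 in D1 vs. E20, a 1.37-fold change. Among all probe sets, 14.9% were called in at least 1 of them, with 3.15% higher and 2.85% lower in H vs. E and 6.39% higher and 4.19% lower in D3 vs. E18. Without the limit on the ratio, 31 of 60 members (51.7%) differed over the 6 ages by limma's F-test, against 33.4% of all probe sets and 83.1% of the 373 other probe sets with a mean of 12 or more. The count of members depended on the scaling of the arrays. It was 11 of 60 after cyclic loess (32.9% of all probe sets), 22 after centring on bright probe sets (41.2%) and 13 after centring on the members (65.8%). All changes of members were fractions of a doubling.

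**Figure D2:**
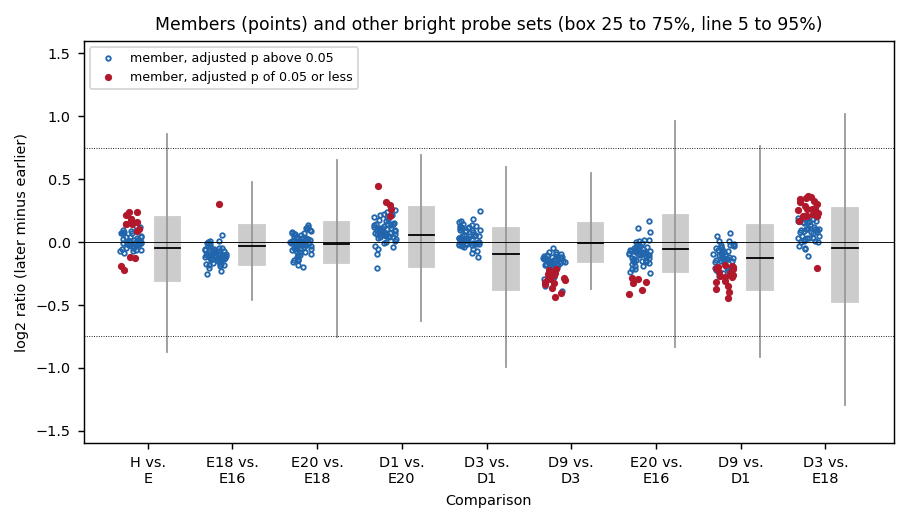
Log2 ratios (later minus earlier) of the 60 members in 9 comparisons, filled red where the adjusted p was 0.05 or less, beside 373 other probe sets with a mean signal of 12 or more (gray box 25 to 75%, gray line 5 to 95%, black bar median). H vs. E sets hatchlings against embryos, and dotted lines mark the log2 ratio of 0.75, which no member reached.

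The 60 members had small shifts in common. Their median deviation was 0.01 to 0.09 on the E16 arrays, -0.05 to -0.01 at E18, -0.08 to -0.02 at E20, -0.01 to 0.11 at D1, 0.07 to 0.10 at D3 and -0.13 to -0.06 at D9, with a pooled SD between arrays of 1 age of 0.03. On the D3 arrays 50 to 56 of 60 members lay above their own mean, and on the D9 arrays 3 to 18 did. D3 was the age of the highest mean for 30 members and E16 for 19, whereas D9 was the lowest for 36 and E20 for 15. These shifts depend on the scaling. The deposited values were scaled by quantiles, which set the distribution of signals equal on all arrays, and members were 44 of the 145 probe sets with a mean between 13 and 14 (30.3%). A shift shared by the family and a shift of the scaling cannot be told apart on these arrays. Counts are therefore given also after cyclic loess scaling, after centring on probe sets above the 90th percentile of the mean (called bright probe sets in what follows on scaling), and after centring each array on the members themselves. For single comparisons, shares of all probe sets changed were counted only in the deposited values. The counts under the other scalings thus describe the members alone, without a background share.

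**Figure D3:**
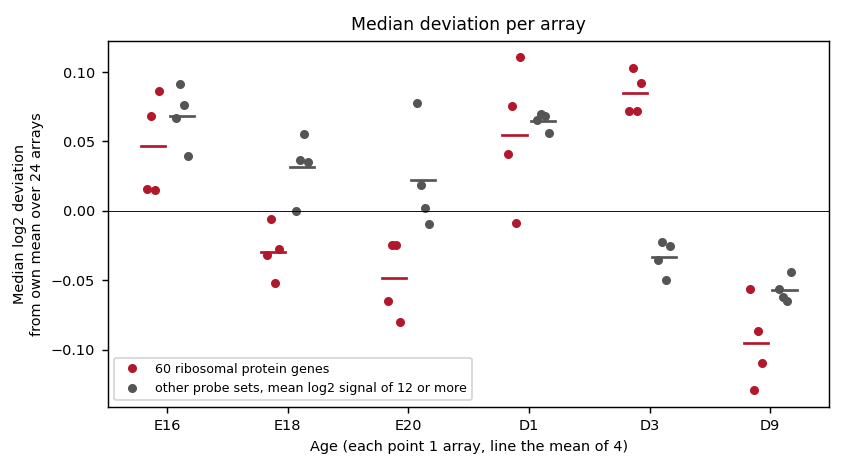
Median log2 deviation from the own mean over 24 arrays, per array (points) and as the mean of 4 arrays (lines), for the 60 members (red) and for other probe sets with a mean signal of 12 or more (gray), by age. The members lay between 0.07 and 0.10 on the D3 arrays and between -0.13 and -0.06 on the D9 arrays.

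D9 vs. D3 compared fed chicks of both ages. All 60 ratios were negative in the deposited values, between -0.43 and -0.05, with a median of -0.17 against 0.02 for all probe sets. That median was -0.03 after cyclic loess, -0.11 after centring on bright probe sets and 0.04 after centring on the members. At D9, 16 members fell and 0 rose, against 2.55% of all probe sets lower and 1.45% higher. Among the 373 other probe sets with a mean of 12 or more, 5.9% changed in each direction. Those 373 are called other bright probe sets in shares and medians, and they are not the set used for centring. In the deposited values, the D9 and D3 arrays did not overlap in 38 members, all lower at D9, against 5.8% of all probe sets. Overlap of arrays was read only in the deposited values throughout, so how far it depends on scaling was not tested. The large subunit had 11 of 38 lower (median -0.17) and the small subunit 5 of 22 (median -0.18). The split of 0 higher and 16 lower became 0 and 0 after cyclic loess, 0 and 2 after centring on bright probe sets, and 1 and 0 after centring on the members. Without D9 replicate 2, or without D3 replicate 4, 8 members changed.

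RPS2, which lines the entry of the messenger RNA channel, measured 13.41, 13.37, 13.33 and 13.27 at D9 and 13.55, 13.81, 13.83 and 13.93 at D3. The groups did not overlap, and the ratio was -0.43 ± 0.09 (SE, adjusted p = 0.00583), a change lost after cyclic loess and after centring on the members. RPL7A, which helps shape ribosomal RNA, measured 12.79, 12.77, 12.60 and 12.83 at D9 and 13.03, 13.18, 13.03 and 13.37 at D3. RPL23, a large-subunit protein that in human cells also binds MDM2, measured 12.09, 12.04, 11.99 and 11.84 at D9 and 12.40, 12.30, 12.22 and 12.49 at D3. In both genes all D9 livers lay below all D3 livers, with ratios of -0.41 (adjusted p = 0.017) and -0.36 (adjusted p = 0.0178), and neither remained past the threshold under any of the 3 other scalings. In the deposited values, the 4 D9 arrays lay below all 20 others in 7 members (RPL7, RPL9, RPL14, RPL22, RPL29, RPL34 and RPS25), against 0.414% of all probe sets. In 0 members did they lie above (0.864%).

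D9 vs. D1 shares its D9 arrays with the comparison above. At D9, 18 members (30.0%) were lower than at D1 and 0 higher, against 5.48% of all probe sets lower and 5.28% higher. Of other bright probe sets 30.6% were lower, a share near that of the members, and 11.3% higher. The members' median was -0.14, with -0.01 over all probe sets and -0.13 over other bright probe sets. The members' median was 0.01 after cyclic loess, -0.10 after centring on bright probe sets and 0.02 after centring on the members. There were 15 lower of 38 in the large and 3 of 22 in the small subunit, a difference that was not tested. The counts lower were 2, 6 and 3 under those scalings in the same order, with 0 higher in each. Without D1 replicate 2, or without D1 replicate 4, 9 members changed. RPS2 and RPL8 were lower under all 4 scalings. RPS2 measured 13.66, 13.73, 13.82 and 13.95 at D1, all above the D9 values already given, and its ratio was -0.45 ± 0.09 (SE, adjusted p = 0.00173). Its other bright probe set gave -0.40. RPL8, which lies at the heart of the large subunit where peptide bonds form, measured 13.36, 13.36, 13.32 and 13.19 at D9 and 13.64, 13.74, 13.53 and 13.90 at D1, with no overlap and a ratio of -0.40 ± 0.08 (SE, adjusted p = 0.00126). RPL22, an RNA-binding protein of the large subunit's surface, measured 12.56, 12.38, 12.69 and 12.51 at D9 and 12.95, 12.91, 12.88 and 12.90 at D1. Its ratio was -0.38 ± 0.07 (SE, adjusted p = 0.000497), and it missed the threshold only after cyclic loess among the scalings (-0.24).

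D1 vs. E20 spans hatching. After hatching 5 members rose (RPL10A, RPLP2, RPS2, RPS3 and RPS26) and 0 fell, against 4.48% of all probe sets higher and 4.78% lower, and 15.8% of other bright ones higher. These 5 also had lower means at E20 than at E16. In that order, their E16 means were 13.14, 11.02, 13.64, 13.23 and 13.13. Their D1 means were 13.24, 11.18, 13.79, 13.16 and 13.16. The members' median was 0.10, against -0.01 over all probe sets and 0.05 over other bright probe sets. The members' median was 0.01 after cyclic loess, 0.05 after centring on bright probe sets and -0.04 after centring on the members. RPLP2 had the largest absolute ratio of any member in the 9 comparisons. It encodes an acidic protein of the stalk, the flexible arm of the large subunit that recruits elongation factors. RPLP2 measured 11.08, 11.24, 11.21 and 11.17 at D1 and 10.90, 10.65, 10.65 and 10.71 at E20. All D1 livers lay above all E20 livers, with a ratio of 0.45 ± 0.08 (SE, adjusted p = 0.000774), and RPLP2 was the 1 member that rose under all 4 scalings. The count of 5 higher and 0 lower became 1 and 0 under each of the other 3, where RPL10A, RPS2, RPS3 and RPS26 missed the threshold. Its stalk partners did not pass the test. RPLP1 had a ratio of -0.03 (adjusted p = 0.867), and RPLP0, the base of the stalk, 0.24 (adjusted p = 0.294). RPS26, which touches the messenger RNA upstream of the start codon, measured 13.12, 13.23, 13.06 and 13.22 at D1 and 12.80, 13.02, 12.92 and 12.61 at E20, without overlap. Its ratio of 0.32 ± 0.09 (SE, adjusted p = 0.0211) was 0.18 to 0.26 under those scalings. The count of 5 was 2 without D1 replicate 2.

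Before hatching, E20 vs. E16 had 6 members lower at E20 and 0 higher, against 4.8% of all probe sets lower and 3.95% higher, and 18.5% of other bright ones lower. The members' median was -0.09, against 0.01 over all probe sets and -0.05 over other bright probe sets. The members' median was -0.05 after cyclic loess, -0.12 after centring on bright probe sets and 0.05 after centring on the members. The split of 0 higher and 6 lower became 0 and 4, 0 and 5, and 2 and 2 under those scalings in the same order. Small-subunit genes made up 4 of the 6. RPS28, a small protein by the path of the messenger RNA, measured 12.28, 12.58, 12.42 and 12.50 at E20 and 12.79, 12.91, 12.87 and 12.87 at E16. RPS15, near the decoding site in the head of the small subunit, measured 13.15, 13.32, 13.11 and 13.21 at E20 and 13.45, 13.61, 13.56 and 13.67 at E16. Neither gene had overlapping groups, and both were lower under all 4 scalings, with ratios of -0.42 ± 0.09 for RPS28 (SE, adjusted p = 0.00485) and -0.38 ± 0.08 for RPS15 (SE, adjusted p = 0.00195). RPS3, at the entry of the messenger RNA channel, measured 12.90, 13.04, 12.87 and 12.80 at E20 and 13.26, 13.27, 13.21 and 13.19 at E16, a ratio of -0.33 that missed the threshold after centring on the members (-0.18).

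The steps between neighbouring embryonic ages and between D3 and D1 held almost no change past the threshold. In E18 vs. E16 RPS13 alone changed (higher, against 0.466% of all probe sets higher and 1.38% lower), by 0.31 on a probe set whose mean of 4.53 is near background, and not without E18 replicate 2 (adjusted p = 0.087). At a p of less than 0.05 before adjustment, 10 members differed there, against 14.4% of all probe sets. Ratios were negative in 56 of 60 members, and in 11 the E18 arrays lay below all E16 arrays, against 4.18% of all probe sets. In E20 vs. E18 limma found 0 members changed, with 2 at that unadjusted p (19.5% of all probe sets), against 4.27% of all probe sets higher and 2.91% lower. D3 vs. D1 sets older, fed chicks of the brooder against incubator chicks given water. It likewise had 0 changed and 2 at the unadjusted p (17.8% of all probe sets). Among all probe sets 3.66% were higher there and 2.98% lower. The members' median ratio was -0.10 in E18 vs. E16 (-0.02 after cyclic loess), -0.01 in E20 vs. E18 and 0.03 in D3 vs. D1. Among other bright probe sets, 10.2% were higher and 26.0% lower at D3 in that comparison.

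D3 vs. E18 had the most changes, 20 members higher at D3 and 1 lower, against 13.4% of all probe sets higher and 13.9% lower, and 22.3% and 33.8% of other bright ones. The median was 0.15, against -0.06 over all probe sets, and it was 0.03 after cyclic loess, -0.03 after centring on bright probe sets and -0.0046 after centring on the members. The split of 20 higher and 1 lower became 3 and 1, 0 and 4, and 3 and 5 under those scalings in the same order. RPS12, a small-subunit protein that varied more than most members, measured 12.34, 12.76, 12.96 and 12.85 at D3 and 12.22, 12.75, 12.37 and 12.11 at E18, and these groups overlapped (0.36 ± 0.13, SE, adjusted p = 0.0404, missing the threshold under the 3 other scalings). RPL6, which binds expansion segments of the large ribosomal RNA in vertebrates, measured 13.19, 13.37, 13.40 and 13.35 at D3 and 12.84, 13.11, 13.09 and 12.86 at E18, without overlap (0.35 ± 0.07, SE, adjusted p = 0.000793, missing the threshold after centring on bright probe sets).

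The array with W-linked signal touched this comparison through the members on chromosome Z. RPS6, the substrate of S6 kinase, measured 14.28, 14.25, 14.29 and 14.28 at D3 and 14.08, 13.83, 14.09 and 14.10 at E18, where the value of 13.83 is that of replicate 2. Its ratio was 0.25 (adjusted p = 0.00201) with and 0.19 (adjusted p = 0.00969) without that array. RPS23, of the decoding center, measured 14.11, 14.07, 14.03 and 14.11 at D3 and 14.01, 13.61, 13.92 and 13.93 at E18. Its ratio was 0.21 (adjusted p = 0.0234) with and 0.12 (adjusted p = 0.112) without the array, and RPL37 went likewise with 0.21 (adjusted p = 0.0174) and 0.14 (adjusted p = 0.0849). RPS6, RPS23 and RPL37 missed the threshold under the 3 other scalings, where the ratio of RPS6 was 0.08 to 0.15. Without the array 18 members were higher and 0 lower at D3.

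**Figure D4:**
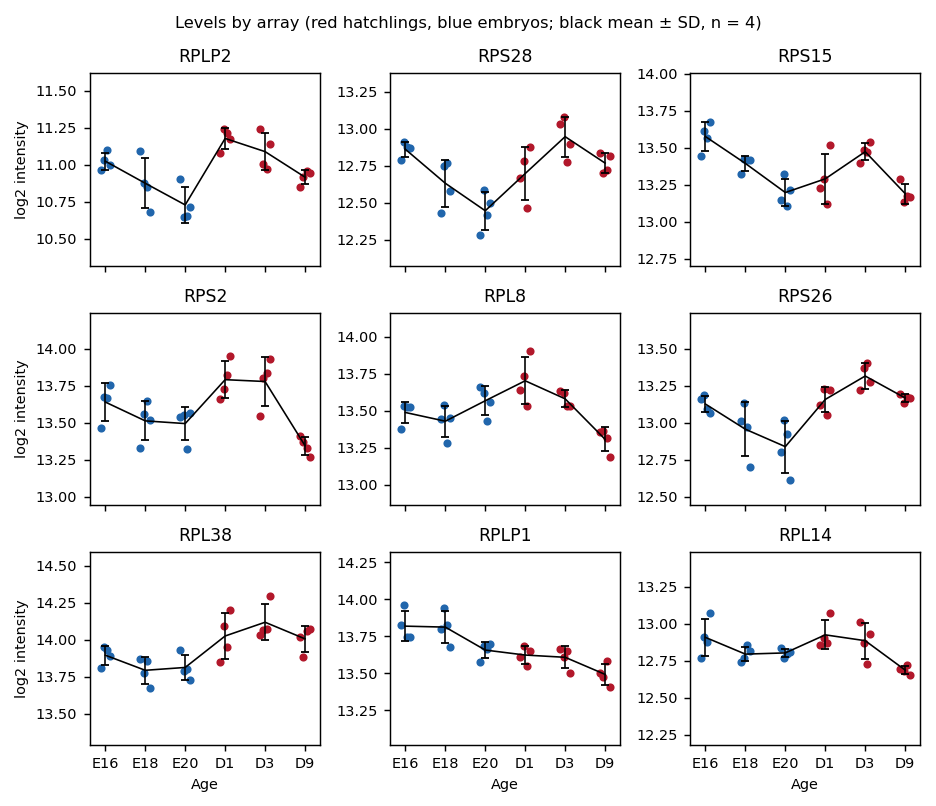
Log2 intensity per array (points, red hatchlings, blue embryos) with mean ± SD (black, n = 4) for 9 members by age, each panel spanning 1.3 log2 units around the gene's own mean. RPLP2 was higher at D1 (11.08 to 11.24) than at E20 (10.65 to 10.90), and RPS2 lower at D9 (13.27 to 13.41) than at D1 (13.66 to 13.95). RPLP1 was mostly lower in hatchlings than at E16 and E18.

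H vs. E, the main comparison of the study, pooled 12 hatchlings and 12 embryos. In hatchlings 12 members were higher and 4 lower, against 15.1% of all probe sets higher and 16.7% lower, and 29.8% and 37.5% of other bright ones. The members' 16 (26.7%) were thus a smaller share than that of all probe sets or of bright ones. The median was 0.02, against -0.02 over all probe sets, and it was -0.01 after cyclic loess, -0.07 after centring on bright probe sets and -0.02 after centring on the members. The split of 12 higher and 4 lower became 6 and 5, 2 and 14, and 8 and 8 in the same order. Without E18 replicate 2 it became 13 and 3, as RPL31 missed the threshold (-0.23, adjusted p = 0.0512) and RPS27A passed it (0.10, adjusted p = 0.0391). In 6 members the change passed the threshold in the same direction under all 4 scalings.

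Of these 6, RPS26 and RPL38 were higher in hatchlings. RPS26 ran over 13.06, 13.21 and 13.40 (lowest, median and highest) in hatchlings and 12.61, 13.02 and 13.19 in embryos, a ratio of 0.24 ± 0.05 (SE, adjusted p = 0.000642). RPL38, which in mouse embryos is needed for translation of Hox messages, ran over 13.85, 14.06 and 14.30 in hatchlings and 13.67, 13.83 and 13.95 in embryos, a ratio of 0.22 ± 0.05 (SE, adjusted p = 0.000833). Both genes overlapped between hatchlings and embryos, and 2 other bright probe sets of RPL38 gave 0.09 (adjusted p = 0.0934) and 0.08 (adjusted p = 0.104). RPL30, which in yeast binds its own message, had a like ratio of 0.24 ± 0.06 (SE, adjusted p = 0.00244), with 13.38, 13.53 and 13.71 in hatchlings and 12.91, 13.29 and 13.54 in embryos, but missed the threshold after centring on bright probe sets (0.15).

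The other 4, RPLP1, RPS25, RPL29 and RPL31, were lower in hatchlings. RPLP1, the acidic partner of RPLP2 in the stalk, ran over 13.41, 13.60 and 13.68 in hatchlings and 13.58, 13.74 and 13.96 in embryos, a ratio of -0.19 ± 0.04 (SE, adjusted p = 0.000611). RPS25, which several viruses need to start translation inside a message, ran over 13.40, 13.67 and 13.79 in hatchlings and 13.61, 13.75 and 13.89 in embryos, a ratio of -0.13 ± 0.04 (SE, adjusted p = 0.0089). Both groups of livers overlapped in each gene, and the RPS25 values below the embryos were those of D9 (13.40 to 13.52). Another bright probe set of RPS25 gave -0.17 (limma, adjusted p = 0.00344), and a further one missed the threshold at -0.11 (adjusted p = 0.0615). RPL29, a heparin-binding protein of the large subunit, had a ratio of -0.12 (adjusted p = 0.0256), with means of 13.14 at D1, 13.13 at D3 and 12.84 at D9 and of 13.13 to 13.18 at the embryonic ages. Its other bright probe set missed the threshold at -0.08 (limma, adjusted p = 0.0542). RPL31, by the exit of the peptide tunnel, had a ratio of -0.22 (adjusted p = 0.0408), with the largest SD of all members and a change lost in 18 of 34 alternatives. RPLP1 was also the 1 member lower at D3 than at E18, with a ratio of -0.20 (adjusted p = 0.0284), a change lost without E18 replicate 2 (-0.16, adjusted p = 0.104).

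In all, 12 changes held under the 4 scalings. How many of all probe sets held likewise was not counted, so no background share stands beside the 12. Of the 12, 7 passed the threshold in every alternative run. These were RPS25 and RPS26 in H vs. E, RPLP2 in D1 vs. E20, RPS15 and RPS28 in E20 vs. E16, and RPL8 and RPS2 in D9 vs. D1. The highest adjusted p of each (limma) was 0.018 for RPS25, 0.048 for RPS26, 0.024 for RPLP2 and 0.034 for RPS15. It was 0.047 for RPS28, 0.044 for RPL8 and 0.045 for RPS2, all near the threshold. Some alternatives could move little. In comparisons of single ages, leaving out an array of another age kept the ratio, and RPS26, RPS15 and RPL8 had no other probe set. The alternatives did not try each bright probe set of RPS25 by itself, and 1 of these missed the threshold, as given above.

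The other 70 probe sets of the members were mostly dim, with 15 of them (of 12 genes) at a mean of 12 or more and 11 under the 25th percentile of all probe sets. The bright ones differed from the shown probe set in ratio by a median of 0.05 and at most 0.22 over 135 comparisons. Both changed in 16 of these, neither in 102 and 1 of the pair in 17, as for RPL38 in E20 vs. E16 (-0.08, adjusted p = 0.668, against -0.30, adjusted p = 0.00444, on another probe set). Of the 70, 39 changed in no comparison and 8, of 6 genes, were called in at least 1, a smaller share than the 14.9% of all probe sets. RPS14, a small-subunit protein, stood out among these 6. Its shown probe set changed in none of the 9 comparisons (0.08, adjusted p = 0.301, in D3 vs. E18). A dimmer one, with a mean of 7.76, measured 8.89, 8.76, 8.52 and 8.57 at D3 and 6.72, 7.01, 7.09 and 6.61 at E18, a ratio of 1.83 (adjusted p = 6.37e-08). Another, with a mean of 7.07, measured 7.54, 7.77, 8.03 and 8.03 at D1 and 6.61, 5.88, 6.31 and 5.87 at E20, a ratio of 1.67 (adjusted p = 1.42e-05). Both pairs of groups were far from overlapping, and which RPS14 transcripts these probe sets read was not tested. The other 5 genes with called dim probe sets were RPL21, RPL27, RPL27A, RPL29 and RPS12, with absolute ratios from 0.76 to 1.01.

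Some like-genes of the family, which were left out of the members, had larger ratios. RPL22L1, the paralog of RPL22, measured 11.12, 11.24, 10.81 and 11.19 at D3 and 9.18, 8.83, 9.12 and 9.17 at E18. These groups lay apart by more than 1 log2 unit, with a ratio of 2.02 ± 0.22 (SE, adjusted p = 3.02e-07). In H vs. E RPL22L1 rose by 1.43 (adjusted p = 7.06e-09), where RPL22 had a ratio of -0.07 (adjusted p = 0.206). RPSAP58, whose RefSeq synonym is RPSA, the laminin receptor and small-subunit protein, averaged 13.69 ± 0.10 at D3 and 13.14 ± 0.23 at E18 (SD, n = 4 each) and rose by 0.55 (adjusted p = 0.000583). It was left out only because its symbol on the array did not match those of the members, so it need not be a paralog or pseudogene. Its ratio exceeded the largest absolute ratio of the members in the 9 comparisons, 0.45. Outside these comparisons, the age means of RPS28 differed by 0.50 (highest at D3, lowest at E20). Of 10 like-genes, 6 were higher and 0 lower in D3 vs. E18, against 13.4% of all probe sets higher and 13.9% lower.

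The genes that make and use ribosomes were read from lists chosen by function. The lists were read only in the deposited scaling and with all arrays, so how far their ratios depend on scaling or on single arrays was not tested. Their shares are set against all probe sets, as shares at like brightness were not counted for the lists. The 4041 genes outside Z with a mean of 8 or more had median deviations of 0.05 to 0.11 on D3 arrays. On E18 arrays these were -0.20 to -0.02. Ribosome assembly factors, the nucleolar and cytoplasmic proteins that process ribosomal RNA and fit ribosomal proteins to it, had the largest median of the lists in D3 vs. E18. Of 59 measured, 49 rose and 0 fell in D3 vs. E18, where 35 were called, with a median ratio of 0.87 against 0.15 for the 60 members. Among all probe sets, 13.4% were higher and 13.9% lower, with 6.39% called higher and 4.19% called lower. The members' 0.15 became 0.03, -0.03 and -0.0046 under the other scalings. NOP16, a nucleolar protein of large-subunit assembly, averaged 9.24 at D3 and 6.96 at E18 (ratio 2.27, adjusted p = 1.39e-09). The RNA helicases DDX47 and DDX21, both of ribosomal RNA processing, each had a ratio of 1.82 (adjusted p = 1.34e-08 and 1.56e-07). In E18 vs. E16, 0 assembly factors were higher and 7 lower (median -0.34), against 0.466% of all probe sets higher and 1.38% lower. E20 vs. E16 had 10 higher and 0 lower (median 0.17), against 3.95% of all probe sets higher and 4.8% lower. E20 vs. E18, which starts from the lower E18 levels, had 33 assembly factors higher and 0 lower and a median of 0.53. In that comparison 0 members changed, and 4.27% of all probe sets were higher and 2.91% lower. In D9 vs. D3, 19 of 59 fell and 0 rose (median -0.43), against 2.55% of all probe sets lower and 1.45% higher. NOLC1 fell by 0.89 (adjusted p = 0.0179) and GAR1, of the particles that modify ribosomal RNA, by 0.87 (adjusted p = 0.00206). In H vs. E, 46 of 59 were higher and 1 lower, with a median of 0.41, against 15.1% of all probe sets higher and 16.7% lower.

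Mitochondrial ribosomal proteins, which build the separate ribosome inside mitochondria, had 32 of 67 higher and 0 lower in D1 vs. E20, with a median of 0.33 (0.10 for the members). Among all probe sets 4.48% were higher there and 4.78% lower. MRPL27 led them in H vs. E with a ratio of 0.95 (adjusted p = 3.37e-08). RNA polymerase I and its factors, which transcribe ribosomal RNA, had 12 of 16 higher and 0 lower in D3 vs. E18, with a median of 0.67. Translation initiation factors had 21 of 33 higher and 2 lower in D3 vs. E18, with a median of 0.41. The shares of all probe sets in that comparison were 13.4% higher and 13.9% lower. Elongation factors and other TOP genes, whose messages are regulated as those of the members are, had 1 of 13 higher and 1 lower there, with a median of 0.03. Among 24 genes of mTOR, S6 kinase and MYC signaling, 6 were higher and 6 lower in D3 vs. E18, with a median of -0.13. MYC, a transcription factor of ribosome production, averaged 8.75 at D3 and 6.86 at E18 (ratio 1.89, adjusted p = 2.02e-06). The transcript of PDCD4, an inhibitor of translation whose protein S6 kinase marks for breakdown, fell by 2.20 (adjusted p = 3.67e-08). MYC and PDCD4 were picked from the 24 after their values were seen, and activity of the pathway was not tested. Differences between these lists and the members were not tested. Of the 60 members 57 had a mean signal of 12 or more, and the response of probe sets at the top of the signal range was not tested either.

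**Figure D5:**
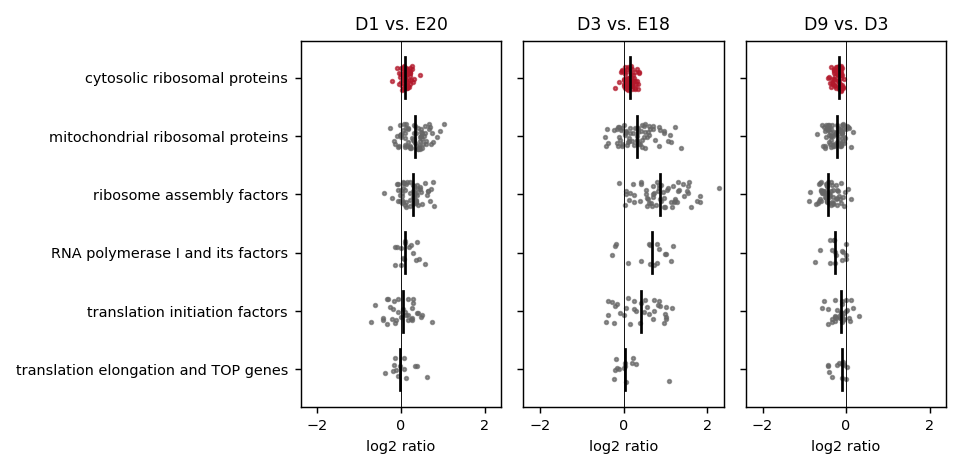
Log2 ratios of the genes of 6 lists in D1 vs. E20, D3 vs. E18 and D9 vs. D3 (each point 1 gene, black line the median, members in red). Members spread between -0.43 and 0.45, while ribosome assembly factors had medians of 0.29, 0.87 and -0.43.

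Markers of other cells moved with some of these comparisons. The 6 measured markers of dividing cells (TOP2A, MKI67, CDK1, AURKB, BUB1 and RRM2) averaged 7.19 to 8.17 on the E20 arrays, 10.01 to 10.46 at D1, 10.43 to 10.78 at D3 and 9.07 to 9.75 at D9. All 6 rose in D1 vs. E20 and in D3 vs. E18, and 5 of 6 fell in D9 vs. D3. Among all probe sets 4.48% were higher in D1 vs. E20, 13.4% were higher in D3 vs. E18 and 2.55% were lower in D9 vs. D3. At D9, 3 of 7 T cell markers were higher than at D3 and 0 lower (1.45% of all probe sets higher). At D1, 3 of 6 stellate and fibroblast markers were lower than at E20 and 0 higher (4.78% of all probe sets lower). In D3 vs. E18 and in H vs. E, 4 of 4 granulocyte markers, 5 of 6 stellate and fibroblast markers and 4 of 5 endothelial markers were lower. So were 2 of 3 bile duct markers, with 1 higher in D3 vs. E18. In H vs. E 6 of 6 markers of dividing cells and 4 of 5 macrophage markers were higher and 4 of 5 erythroid markers lower. Among all probe sets 13.9% were lower in D3 vs. E18, and in H vs. E 15.1% were higher and 16.7% lower. The part of these cells in the members' shifts was not tested.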

How the data were processed

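The authors deposited log2 intensities, made from the scanned arrays by robust multi-array average (RMA) in affylmGUI with limma 3.30.13, as given in the submitters' processing notes and the study's methods. RMA corrects background, makes the quantiles of all arrays equal and summarizes the probes of a set. The medians of the arrays were 5.43 to 5.55. The file held 38535 probe sets, of which 96 controls were left out. Only the 27168 probe sets with exactly 1 symbol in GEO's annotation named a gene (177 have several symbols and 11094 have none). All 60 members were found in RefSeq (GRCg7b) with the same symbol. RPS4Y1 was kept (RefSeq synonyms RPS4 and RPS4X) and RPS19BP1, which binds a member, was left out. Ages come from sample titles, since the stage label repeats E16 for E18 and E20.

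A linear model was fitted to every probe set in limma 3.58.1 (R 4.3.3), with 1 mean per age over all 24 arrays and no block (18 residual and 3.81 prior degrees of freedom). Tests were two-sided and moderated, and the number of arrays limits their precision. The fit was tested on simulated data. Figures used Python 3.11.15 and matplotlib 3.10.9. Members and lists were chosen with earlier results of these data known. Members named in the text are the 3 with the highest and the 3 with the lowest ratio among those changed in each comparison, the 3 of largest and smallest SD and of highest and lowest mean, and RPL14, RPS6, RPLP0, RPLP1 and RPLP2. Others were named after their values were seen.

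Replicate numbers mark the 4 hybridization days of the study, each with 1 liver of every age. Deviations from age means correlated by 0.071 on average over 60 pairs of the same day and by -0.0234 over 180 pairs that did not share a day (0.0036, 0.0454, 0.0602 and 0.175 within days 1 to 4). Alternatives were a replicate block, cyclic loess, centring on bright probe sets, array weights, trend and robust fits, a filter at the 25th percentile, only the arrays compared, the most variable probe set or an average of all probe sets of a member, each array left out, E18 replicate 2 with D9 replicate 1 left out, and, chosen after seeing the data, centring on the members.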

Additional observations from a re-analysis of the deposited data

Results flagged for a closer look

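In 18 of 366 sets of 4 livers of 1 age (60 members and their median deviation at each age), the highest or lowest liver lay apart from the 3 others by more than Dixon's 95% limit. Chance flags about 1 in 20 such sets where they are independent, but the sets here share arrays and hybridization days. Many of the flagged livers were replicate 4, and day 4 had the highest correlation within a day (0.175). RPL36A was lowest on replicate 4 at every age. An effect of the day on single members was not tested. RPL17 measured 13.42 on E18 replicate 2, the array with W-linked signal, against 13.74 to 13.79 on the other E18 arrays. RPS6 measured 13.83 on E18 replicate 2, against 14.08 to 14.10 on the other E18 arrays. RPL10A measured 13.25 on E16 replicate 4, against 13.10 to 13.12. RPL11 measured 13.03 on D1 replicate 4, against 12.90 to 12.91. RPL19 measured 13.97 on D1 replicate 3, against 13.91. RPL23 measured 12.25 on E16 replicate 4, against 12.04 to 12.07. RPL27A measured 13.23 on E16 replicate 4, against 13.43 to 13.45. RPL27A measured 13.13 on E20 replicate 4, against 13.43 to 13.44. RPL35A measured 11.99 on E20 replicate 2, against 11.85 to 11.87. RPL36A measured 12.84 on E16 replicate 4, against 13.09 to 13.11. RPL36A measured 12.73 on D1 replicate 4, against 13.03 to 13.05. RPL37A measured 13.29 on E18 replicate 1, against 13.45 to 13.48. RPL38 measured 14.30 on D3 replicate 4, against 14.03 to 14.08. RPL7 measured 13.22 on D1 replicate 4, against 13.13 to 13.15. RPL8 measured 13.38 on E16 replicate 1, against 13.52 to 13.53. RPS15 measured 13.32 on E18 replicate 1, against 13.42. RPS2 measured 13.32 on E20 replicate 3, against 13.54 to 13.56. RPS20 measured 14.09 on E16 replicate 1, against 13.94 to 13.96.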

How the results depend on the processing

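Scaling moved many of the counts of members changed, while the number of members called at a log2 ratio of 0.75 was 0 under all scalings. Centring on bright probe sets moved the median ratio of all probe sets to -0.11 in H vs. E, 0.10 in E18 vs. E16, -0.13 in E20 vs. E18 and -0.24 in D3 vs. E18, and centring on the members moved it to between -0.21 (D3 vs. E18) and 0.23 (D9 vs. D3). Under cyclic loess the members' median ratio was -0.019 in E18 vs. E16, -0.0491 in E20 vs. E18, 0.0095 in D1 vs. E20, -0.0325 in D9 vs. D3, -0.049 in E20 vs. E16, 0.0052 in D9 vs. D1 and 0.0306 in D3 vs. E18, and 0, 1, 1, 0, 2 and 4 members changed in E18 vs. E16, E20 vs. E18, D1 vs. E20, D9 vs. D3, D9 vs. D1 and D3 vs. E18, with 11 over the 6 ages. Centred on bright probe sets, the medians were -0.0699 in H vs. E, -0.0247 in E18 vs. E16, -0.115 in E20 vs. E18, 0.0458 in D1 vs. E20, -0.108 in D9 vs. D3, -0.0953 in D9 vs. D1 and -0.0307 in D3 vs. E18, and 1, 1, 2, 6 and 4 members changed in E20 vs. E18, D1 vs. E20, D9 vs. D3, D9 vs. D1 and D3 vs. E18. Centred on the members, the medians were -0.0212 in H vs. E, 0.0032 in E18 vs. E16, 0.0266 in E20 vs. E18, -0.0366 in D1 vs. E20, -0.0206 in D3 vs. D1, 0.0405 in D9 vs. D3, 0.0534 in E20 vs. E16, 0.0195 in D9 vs. D1 and -0.0046 in D3 vs. E18, and 1, 1, 3 and 8 members changed in D1 vs. E20, D9 vs. D3, D9 vs. D1 and D3 vs. E18, with 13 over the ages. Array weights gave 0 in E18 vs. E16, 2 in D3 vs. D1 and 25 in D9 vs. D3, and trend and robust fits 10 in D9 vs. D1. Only the arrays compared, with fewer residual degrees of freedom, gave 0 in E18 vs. E16, 1 in D1 vs. E20, 8 in D9 vs. D3, 8 in D9 vs. D1 and 6 in D3 vs. E18, and no value for H vs. E or the test over ages. The probe set of largest variance, often a dim one, gave 1 called member in H vs. E, D1 vs. E20, E20 vs. E16 and D9 vs. D1 and 4 in D3 vs. E18, counts changed of 0 in E18 vs. E16, 1 in E20 vs. E18, 8 in D1 vs. E20 and 7 in D9 vs. D3, and a reversed ratio of -0.0208 for RPS13 in E18 vs. E16. The mean of the probe sets gave 1 in E20 vs. E18. Where not stated, the cause was not tested.

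With a replicate block the counts changed were 17 in H vs. E, 1 in E18 vs. E16, 0 in E20 vs. E18, 5 in D1 vs. E20, 0 in D3 vs. D1, 19 in D9 vs. D3, 7 in E20 vs. E16, 21 in D9 vs. D1, 22 in D3 vs. E18 and 36 over the ages, and no change of a named member was lost. Without E18 replicate 2 and D9 replicate 1 the counts were 14, 0, 0, 4, 0, 11, 6, 12, 17 and 27 in the same order. With each array left out in turn the counts ran over 13 to 17 in H vs. E, 0 to 2 in E18 vs. E16, 0 to 0 in E20 vs. E18, 2 to 7 in D1 vs. E20, 0 to 1 in D3 vs. D1, 8 to 19 in D9 vs. D3, 4 to 8 in E20 vs. E16, 9 to 19 in D9 vs. D1, 15 to 22 in D3 vs. E18 and 27 to 32 over the ages. The medians ran over 0.01 to 0.03 in H vs. E, -0.11 to -0.09 in E18 vs. E16, -0.02 to 0.01 in E20 vs. E18, 0.08 to 0.12 in D1 vs. E20, 0.01 to 0.05 in D3 vs. D1, -0.19 to -0.16 in D9 vs. D3, -0.11 to -0.08 in E20 vs. E16, -0.16 to -0.13 in D9 vs. D1 and 0.12 to 0.15 in D3 vs. E18, and members called stayed at 0. Of 799 ratios of named members under alternatives, 689 kept direction and threshold side, 109 missed the threshold and 1 reversed. These totals include many fits without an array of an age not compared, which keep the ratio. Under cyclic loess 14 kept both and 9 missed the threshold. The numbers were 15 and 8 after centring on bright probe sets, and 16 and 7 after centring on the members.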
